A study of Mus musculus with 2 samples.

Results

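The natural killer receptor complex of mouse chromosome 6 was taken as all genes with a symbol starting in Klr or Clec that RefSeq places between 122 Mb of GRCm38 and the far end of the complex, where the last such gene, Klra2, ends at 131247716. The rule found 53 genes, 48 of them protein-coding and 5 pseudogenes, out of 42060 annotated genes that overlap the analysed table. They lay in 42 of 43941 windows of 50 kb. Genes with identical windows were counted as 1 locus, which gave 46 loci out of 29502. The rule used symbols and positions, not measured values. Promoter Capture Hi-C, which joins chromatin fragments that touch in the nucleus and then enriches those holding a promoter with RNA baits, had been performed on F121-6 cells. These are female mouse embryonic stem (ES) cells from a cross of 129 with castaneus (Cas) mice, so each locus has 1 allele of either origin, and they were grown on inactivated mouse embryonic fibroblasts. The group held 2 samples, replicates 1 and 2, of this 1 cell line, with no treatment or altered allele named in the labels, and the table gives 1 pooled value per allele. No spread between replicates could therefore be given, and every test below concerns counting error or the spread between windows of these pooled libraries.

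The genes of the complex encode type II membrane proteins with a C-type lectin-like domain, carried by natural killer cells, T cells, myeloid cells and platelets. Paired inhibitory and activating receptors bind MHC class I molecules (Klra, the Ly49 family, and the heterodimers of Klrc proteins with Klrd1) or other lectin-like proteins encoded in the same complex (Klrb1 receptors and their Clec2 ligands). The content of the Klra cluster is known to differ between mouse strains. The assembly behind the window positions, mm10 (GRCm38), is that of C57BL/6J, a strain that is neither parent of these cells. Whether this affected the count of either allele was not tested. Expression of these receptors in the ES cells was not analysed here.

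Across the 42 windows, 53530 interactions were on 129 and 42466 on Cas. The 129 share was 55.8% (exact Clopper-Pearson 95% interval 55.4 to 56.1%), compared with 57.8% on chromosome 6 and 57.6% on all 19 autosomes. Intervals and floors cover counting error only, and assume independent interactions. The median log2 ratio of 129 to Cas, after subtraction of the autosomal median, was -0.055, with quartiles of -0.41 and 0.20. The same quartiles over all windows were -0.19 and 0.23. The complex thus had a median near that of other windows but a wider spread, with a standard deviation of 0.70 against 0.49 on chromosome 6 and 0.45 on the autosomes. This spread was not uniform along the complex: single families and single windows leaned to opposite alleles.

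Of the 42 windows, 14 differed by 1.5-fold or more from the autosomal median, 7 towards each allele. Over all windows, 12.2% were past this fold, 7.72% towards 129 and 4.53% towards Cas. At 2-fold or more, 3 windows lay towards each allele, where the shares over all windows were 2.40% and 0.923% (3.32% together). A beta-binomial test, which allows for the spread of the 129 share between windows, called 2 windows after Benjamini-Hochberg adjustment over 43762 windows, both higher on 129. This test called 0.944% of all windows, 0.727% higher on 129 and 0.217% higher on Cas. A binomial test, which allows for counting error alone, called 26 of the 42, 10 higher on 129 and 16 on Cas, while it called 51.4% of all windows (27.1% and 24.3% in the same order). Among the 46 loci, the beta-binomial test called 1, Klrc1, higher on 129, against 1.36% of all loci (1.03% higher on 129 and 0.327% on Cas). This locus is 1 of the 2 called windows, with the same counts. With the overdispersion estimated by decile of the count, the same 2 windows and 1 locus were called, against 0.697% of windows and 1.06% of loci. Of the loci, 4 lay 1.5-fold or more towards 129 and 7 towards Cas, against 8.67% of all loci (5.38% and 3.29%). The binomial test called 30 loci, 10 higher on 129 and 20 on Cas, against 61.6% of all loci (29.0% and 32.5%). All 42 windows and 46 loci had the 10 or more interactions that the tests required.

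**Figure D1:**
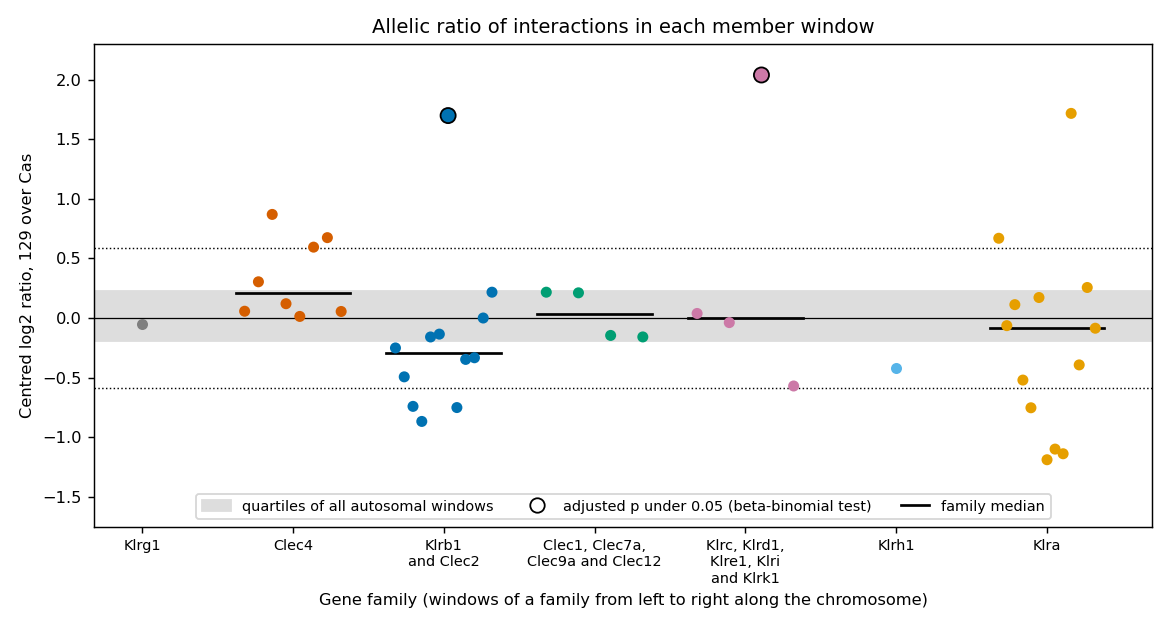
Centred log2 ratio of 129 to Cas interactions in each of the 42 windows, grouped by gene family on the horizontal axis; a window shared by 2 families is drawn in both. Grey marks the quartiles of all autosomal windows, dotted lines 1.5-fold, black bars family medians and outlined points the windows called by the beta-binomial test. The 8 Clec4 windows all lie above 0, 9 of the 12 Klrb1 and Clec2 windows below it, and both called windows stand above 1.5.

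Upstream sequences of RefSeq (GRCm38.p6) were found for 41 of the 53 genes, with 49 listed starts. The 250 bases before a start held a median of 2 CG dinucleotides (range 0 to 7) in the complex and 6 (quartiles 2 and 16) over 32851 promoters. At least 1 CG lay in 85.7% of the members' sequences and in 92.1% of all, and 5 or fewer in 48 of 49 and in 49.6% of all. The median GC content was 39.2% against 52.4%. These promoters were thus poor in CG as a group. The site of HindIII, AAGCTT, the enzyme of the assay, was present in 3 of the 49, those of Clec4a1, Clec4d and Clec9a, and in 6.22% of all promoters. Both motifs read the same on either strand. Shown is the most upstream listed start of each gene that starts inside a called window and, for Klrb1c, inside the window with the largest ratio towards Cas among those with 1000 or more interactions. Capitals mark CG. Klrc1 (chr6:129678974-129679223, minus strand) and Klrc2 (chr6:129660597-129660846, minus strand) start in the same window, where a second listed start of Klrc2 is not shown, Clec2g lies at chr6:128934131-128934380 (plus strand) and Klrb1c at chr6:128788642-128788891 (minus strand). The listed start of Klrc1 is internal: the annotated gene reaches 129682852, so all bases printed for it lie within the gene. Klrc2 reaches 129660737, so its printed bases lie partly within it.
Klrc1: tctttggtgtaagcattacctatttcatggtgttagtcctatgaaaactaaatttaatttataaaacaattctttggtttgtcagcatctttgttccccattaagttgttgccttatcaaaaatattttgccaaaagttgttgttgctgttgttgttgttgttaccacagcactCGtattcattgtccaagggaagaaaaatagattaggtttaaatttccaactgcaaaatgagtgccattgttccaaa
Klrc2: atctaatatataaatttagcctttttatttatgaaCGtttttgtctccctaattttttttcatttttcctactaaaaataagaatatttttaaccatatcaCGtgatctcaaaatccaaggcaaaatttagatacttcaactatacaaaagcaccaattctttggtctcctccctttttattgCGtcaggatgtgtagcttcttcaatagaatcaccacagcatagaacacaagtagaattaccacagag
Clec2g: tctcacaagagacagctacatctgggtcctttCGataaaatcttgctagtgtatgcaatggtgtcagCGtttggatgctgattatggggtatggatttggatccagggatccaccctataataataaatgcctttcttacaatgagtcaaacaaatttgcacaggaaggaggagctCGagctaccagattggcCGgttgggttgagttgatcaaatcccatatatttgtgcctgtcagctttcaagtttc
Klrb1c: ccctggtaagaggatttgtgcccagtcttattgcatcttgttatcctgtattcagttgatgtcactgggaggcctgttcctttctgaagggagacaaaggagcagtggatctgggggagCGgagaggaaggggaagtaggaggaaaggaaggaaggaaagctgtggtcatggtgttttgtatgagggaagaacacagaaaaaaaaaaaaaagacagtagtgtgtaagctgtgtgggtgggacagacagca

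Some genes of the Klra family have upstream sequences that are much alike. Reads of like sequence can be hard to place, and whether this affected the counts was not tested. Over the 55 pairs of Klra genes, the aligned upstream sequences had a median identity of 48.4% (range 37.9 to 84.5%), while 664 pairs from different families had a median of 46.2% and none above 54.5%. Outside the Klra family, the closest pairs were Clec2e with Clec2h (81.8%) and Klrc2 with Klrc3 (70.8%). By identity over the whole alignment, overhanging ends included, the closest pair was Klra4 (chr6:130067272-130067521) and Klra8 (chr6:130129899-130130148), both on the minus strand, with 212 identical bases (84.5%). Klra3 (chr6:130337627-130337876) and Klra9 (chr6:130193113-130193362), also on the minus strand, had 224 identical bases, 83.3% over the whole alignment and 97.0% of the 231 positions where a base of one is aligned with a base of the other. That last measure was 85.1% of 249 positions for Klra4 and Klra8. The listed starts of Klra4 and Klra9 are internal, as the annotated genes reach 130067301 and 130194374. Capitals mark bases that differ within the pair or have no base of the partner aligned with them.
Klra4: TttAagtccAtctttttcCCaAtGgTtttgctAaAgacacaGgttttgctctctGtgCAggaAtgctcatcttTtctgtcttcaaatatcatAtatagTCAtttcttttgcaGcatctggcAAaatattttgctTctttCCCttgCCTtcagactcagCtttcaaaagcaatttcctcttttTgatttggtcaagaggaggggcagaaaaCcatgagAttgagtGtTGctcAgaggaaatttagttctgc
Klra8: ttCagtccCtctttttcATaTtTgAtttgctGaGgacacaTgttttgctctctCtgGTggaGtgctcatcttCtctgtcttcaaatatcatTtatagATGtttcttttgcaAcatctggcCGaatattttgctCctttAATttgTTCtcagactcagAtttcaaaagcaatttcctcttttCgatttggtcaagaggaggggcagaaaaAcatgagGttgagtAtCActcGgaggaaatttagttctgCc
Klra3: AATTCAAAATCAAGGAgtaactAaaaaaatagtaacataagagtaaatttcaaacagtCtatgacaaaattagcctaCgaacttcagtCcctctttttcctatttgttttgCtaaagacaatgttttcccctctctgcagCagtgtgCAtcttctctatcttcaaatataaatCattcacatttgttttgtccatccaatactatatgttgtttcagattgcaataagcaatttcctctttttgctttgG
Klra9: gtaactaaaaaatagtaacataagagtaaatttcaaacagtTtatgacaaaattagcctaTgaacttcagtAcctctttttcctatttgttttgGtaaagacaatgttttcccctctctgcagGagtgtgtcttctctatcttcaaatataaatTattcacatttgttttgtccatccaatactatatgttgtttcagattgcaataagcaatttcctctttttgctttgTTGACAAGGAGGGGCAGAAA

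The inhibitory receptor gene Klrc1 (NKG2A; chromosome 6, 129666015 to 129682852) lay in the window with the largest ratio of the complex (129650001 to 129700000). The 129 allele had 466 interactions and the Cas allele 82, a 129 share of 85.0% (81.8 to 87.9%) and a centred log2 ratio of 2.04. The adjusted p of the beta-binomial test was 0.000788 for the window and 7.39e-05 for the locus. The Klrc1 locus consists of this 1 window, so both values rest on the same counts. They differ only in the overdispersion and in the units adjusted over. Against equal shares of both alleles, the locus was called and the window was not. This window also covers nearly all of Klrc2, which encodes a related receptor chain, and one end of Klri1. The window before it (129600001 to 129650000), with Klrk1 (the activating receptor NKG2D), Klrc3 and the last bases of Klrc2, had 2304 and 1729 interactions and a ratio of -0.04. The window after it (129700001 to 129750000), with Klri1 and Klri2, whose products pair with that of Klre1, had 3402 on 129 and 3692 on Cas, a ratio of -0.57. The Klrc1 window was therefore an isolated excess on 129, beside a window that leaned to Cas. Summed over the Klrc1 window and the one after it, the alleles had 3868 and 3774 interactions, and Klri1, which spans both, had a ratio of -0.42 (beta-binomial adjusted p of 1). The Klrc2 locus, which sums the Klrc1 window and the one before it, had 2770 and 1811 interactions. Its ratio was 0.16, and the beta-binomial test did not call it. Klrd1 (CD94, the partner chain of Klrc receptors) and Klre1 shared a window with 3176 and 2260 interactions and a ratio of 0.04.

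Over the 4 windows of the Klrc, Klrd1, Klre1, Klri and Klrk1 genes, the 129 share was 54.6% (53.9 to 55.4%). It was 59.4% without the Klri2 window, so this value rested on 1 window of high count. Counts in the Klrc1 window were low for the complex, with 548 interactions on both alleles together against a median of 1566.5 over all member windows.

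The other called window lay at the start of Clec2g, a member of the Clec2 family of Klrb1 ligands (chromosome 6, 128934381 to 128984707). Here 129 had 390 interactions and Cas 87, a share of 81.8% (78.0 to 85.1%), a ratio of 1.70 and a beta-binomial adjusted p of 0.0123. At a threshold of 0.01 this window was not called, and against equal shares of both alleles 0 windows of the complex were called (4 at an unadjusted p under 0.05). The second window of the same gene (128950001 to 129000000) had 750 and 923 in the same order, a share of 44.8% (42.4 to 47.2%) and a ratio of -0.75, with an adjusted p of 0.928. The alleles thus differed in opposite directions in adjoining windows of this gene. Its summed counts were 1140 and 1010, a ratio of -0.28 (adjusted p of 1), so the locus as a whole does not show the called window.

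Apart from that window, most windows of the Klrb1 and Clec2 genes leaned towards Cas. The 12 windows of the family had a 129 share of 52.0% (51.5 to 52.6%) and a median ratio of -0.29, and 9 of them lay below 0, as did 49.9% of all windows. The lowest was that of Klrb1c, which encodes the NK1.1 antigen (128778485 to 128788641). Its counts were 1542 for 129 and 2057 for Cas, a share of 42.8% (41.2 to 44.5%) and a ratio of -0.87. Next to it, Klrb1 had 657 and 803, a share of 45% (42.4 to 47.6%) and a ratio of -0.74. Neither passed the beta-binomial test, with adjusted p of 0.650 for the Klrb1c window and 0.954 for the Klrb1 window, while both passed the binomial test. The window with Clec2h and the pseudogene Clec2j had 894 and 920 interactions, a ratio of -0.49. These 3 windows adjoin each other, from 128650001 to 128800000.

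The other members of the family were closer to the autosomal median. Klrb1a had 1297 interactions on 129 and 1128 on Cas, a ratio of -0.25. Klrb1b, an inhibitory receptor gene, had 1265 and 1032, and Clec2i 1397 and 1121, with ratios of -0.16 and -0.14. The window shared by Clec2f and Klrb1f had 1708 and 1588, a ratio of -0.35. The window with Clec2e and the pseudogene Klrb1-ps1 had the highest count of the complex, 4739 and 4364, and a ratio of -0.33. Clec2d, whose product is the ligand of Klrb1b, had 1403 and 1025, a ratio of 0.00. Clec2m, in a window shared with Clec12a, had 872 and 548, a ratio of 0.22. The lean to Cas was thus largest around Klrb1 and Klrb1c and in the second Clec2g window. The window 129050001 to 129100000, which covers the rest of Klrb1f and most of Clec2e, was not analysed here, so the values for these genes come from 1 window each.

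The Clec4 cluster (122900001 to 123300000), well before Klrb1a, encodes receptors of macrophages and dendritic cells, and leaned the other way. All 8 windows were above 0, as were 50.1% of all windows, and the 129 share was 63.2% (62.4 to 64.0%). Without the window of highest count it was 61.0%. The window of Clec4n (dectin-2, a receptor for fungal mannans), which also covers the end of Clec4b2, had 2585 interactions on 129 and 1183 on Cas. Its share was 68.6% (67.1 to 70.1%) and its ratio 0.67. The window with most of Clec4b2 had 495 and 239, a ratio of 0.59. The window with most of Clec4a4 and the first bases of Clec4b1 had 499 and 199, a share of 71.5% (68.0 to 74.8%) and a ratio of 0.87, with a beta-binomial adjusted p of 0.737. None of the 8 windows passed that test. The binomial test called 4, all higher on 129, where it called 27.1% of all windows higher on 129 and 24.3% on Cas.

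The remaining Clec4 windows lay closer to 0. Clec4a3 shared a window with the end of Clec4a4, with 793 and 469 interactions and a ratio of 0.30. The window with nearly all of Clec4b1 had 347 and 233, a ratio of 0.12. Clec4a1 had 1226 and 861, Clec4a2 (DCIR, an inhibitory receptor) 539 and 390, and the window of Clec4d and Clec4e (Mincle, a receptor for mycobacterial glycolipid) 1682 and 1183. The ratios of these 3 windows were 0.06, 0.01 and 0.05. The lean to 129 thus sat at Clec4a4, Clec4b2 and Clec4n, and was small in the windows at both ends of the cluster. The windows just outside it also lay above 0, at 0.46 before it (C3ar1 and Necap1, 1905 and 1010 interactions) and 0.52 after it (Vmn2r19, 1092 and 556).

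**Figure D2:**
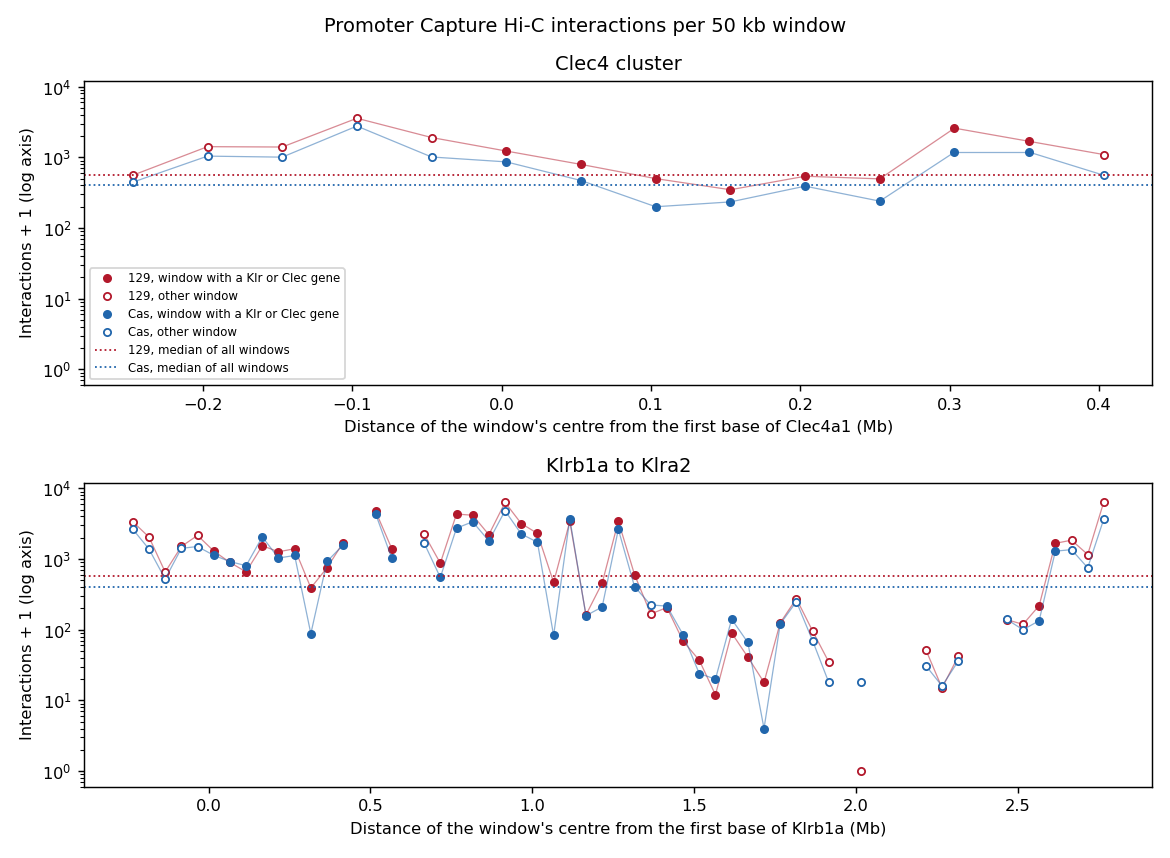
Interactions plus 1 on 129 (red) and Cas (blue) in each 50 kb window, on a log axis, against the distance of the window's centre from the first base of Clec4a1 (top) or Klrb1a (bottom); filled points hold a Klr or Clec gene, open points do not, and lines join adjoining windows. Dotted lines are the medians of all windows, 565 on 129 and 405 on Cas. From Klra6 to Klra1 both alleles fall below these medians, to 17 and 3 interactions at Klra3.

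The Klra genes split by count. Klra17 (Ly49Q, of plasmacytoid dendritic cells) and Klra5 shared a window with 3439 interactions on 129 and 2627 on Cas, a ratio of -0.06. The other window of Klra17 had 456 and 209, a ratio of 0.67 and a beta-binomial adjusted p of 1. The other window of Klra5 had 601 and 406, a ratio of 0.11. Klra2, which lies apart at 131198970 to 131247716, had 1665 and 1291 interactions in one window and 218 and 133 in the other, with ratios of -0.09 and 0.26. Over both windows of Klra2 the share was 56.9% (55.2 to 58.6%).

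Between them, the 8 windows from Klra6 (130000001 to 130050000) to Klra1 held 590 interactions on 129 and 668 on Cas in all, with medians of 54 and 74.5. A promoter start listed by RefSeq lay in each of the 8, but which listed starts had a bait was not known here. Among 15461 windows with a promoter start, whose median was 2851 interactions on both alleles, only 6.84% had 420 or fewer, the highest count of the 8, as had 20.3% of all windows. In these windows the 129 share was 46.9% (44.1 to 49.7%) and the median ratio -0.64. The 8646 autosomal windows with a summed count in the same range, 20 to 420, had a share of 59.2% and a median ratio of 0.08. The group of 8 was bounded after its values were seen and was not tested as such.

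Klra7 (Ly49G, an inhibitory receptor) had 89 interactions on 129 against 140 on Cas, giving a share of 38.9% (32.5 to 45.5%) and a ratio of -1.10. Klra10 and part of Klra13-ps shared a window with 40 and 65, a share of 38.1% (28.8 to 48.1%) and a ratio of -1.14. The window of Klra9 (Ly49I, an inhibitory receptor) and part of Klra14-ps had 11 and 19, a share of 36.7% (19.9 to 56.1%) and a ratio of -1.19. These 3 adjoining windows leaned to Cas by more than 2-fold, but none passed the beta-binomial test, with adjusted p of 0.423, 0.573 and 1. The binomial test called the Klra7 and Klra10 windows but not that of Klra9, where its adjusted p was 0.0637.

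The window of Klra4 (Ly49D, an activating receptor) and Klra11-ps had 68 and 84 interactions, a ratio of -0.75 (adjusted p of 1). The window before it, with Klra6 and the end of Klra4, had 205 and 215, a ratio of -0.52. Klra1 (Ly49A, a receptor for H2-D molecules) had 124 and 119, a ratio of -0.39. Klra8 (Ly49H, an activating receptor for a cytomegalovirus protein), with part of Klra14-ps, had 36 and 23, a share of 61.0% (47.4 to 73.5%) and a ratio of 0.17. Klra3 (Ly49C), with part of Klra13-ps, had 17 and 3, a ratio of counts of 5.67 (95% interval 1.64 to 30.2), in the window with the fewest interactions of the complex. It was named although its count was below the 30 that the rule for full values required. The upstream sequence of Klra3, printed above, is 97.0% identical to that of Klra9 over 231 paired positions and 83.3% over the whole alignment. The Klra9 window leaned the other way, also on few interactions. Of the 8 windows, the beta-binomial test called 0 and the binomial test 5, 4 of them higher on Cas and that of Klra3 higher on 129. Of the 8646 windows of like count, the beta-binomial test called 1.76%, and the binomial test 15.4% higher on Cas and 27.1% on 129. By fold, 4 of the 8 lay 1.5-fold or more towards Cas and 1 towards 129, and of all windows in the same count range 10.2% and 18.2%. How far like copies, or a different gene content on each allele, entered these low counts was not tested.

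**Figure D3:**
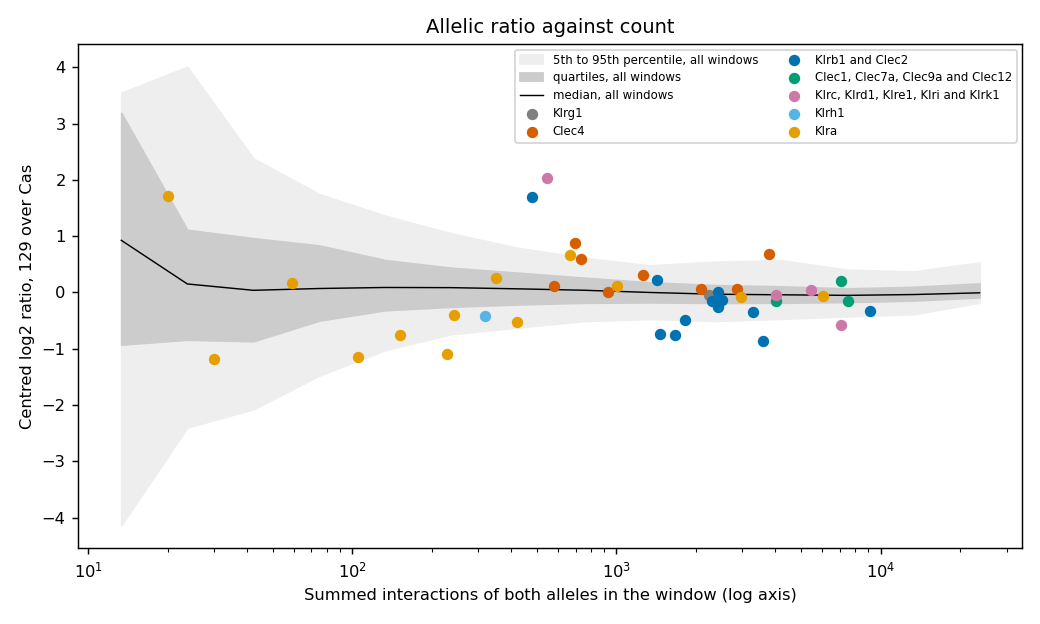
Centred log2 ratio of the 42 windows against their summed interactions on a log axis, coloured by family (the window of Clec2m and Clec12a with Klrb1 and Clec2). Light and dark grey give the 5th to 95th percentile and the quartiles of all autosomal windows of like count. The Klrc1 window (548 interactions, 2.04) and the Clec2g window (477, 1.70) lie far above windows of like count, while the low-count Klra windows lie where all windows spread more widely, with Klra7 (229, -1.10) and Klra10 (105, -1.14) near or below the lower edge of the light band.

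Klrh1, between Klri2 and Klra17, had 161 interactions on 129 and 157 on Cas, a ratio of -0.42 with a beta-binomial adjusted p of 1. The myeloid and platelet genes in the middle of the complex were near the autosomal median. Their 4 windows had a 129 share of 57.8% (57.1 to 58.5%) and ratios of -0.16 to 0.22, and none was past 1.5-fold. Clec12a, an inhibitory receptor gene of myeloid cells, lay in windows with 872 and 548 and with 4329 and 2732 interactions, the second shared with Clec12b and Clec1b. The next window, with Clec9a (a receptor for dead cells on dendritic cells) and parts of Clec1a, Clec1b and Clec12b, had 4160 and 3364, a ratio of -0.15. Clec7a (dectin-1, a receptor for fungal glucans) and the end of Clec1a had 2209 and 1802, a ratio of -0.16. Klrg1, a receptor for cadherins at the other end of the region, had 1274 and 961, a ratio of -0.05.

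Ratios could change sharply from one window to the next. The ratios of the 34 pairs of adjoining member windows differed by a median of 0.35, compared with 0.25 over 42525 pairs on the autosomes. They were 2 or more apart in 5 pairs, against 0.903% of all pairs. These 5 were the pair within Clec2g, both pairs that include the Klrc1 window and both that include the Klra3 window. In 2 pairs, Clec2g and that of Klra10 with Klra3, the windows lay 1.5-fold or more in opposite directions, as in 0.616% of all pairs. The Klra3 window had only 17 and 3 interactions. Ratios of autosomal windows with 17.8 to 31.6 interactions ran from -2.40 to 4.01 (5th to 95th percentile). The autosomal pairs were not matched for count, and the difference from them was not tested.

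Interaction distances are described by family, and differences between families were not tested. Distances were compared where 129 and Cas each had at least 10 interactions, in all windows but that of Klra3. Among these 41 the distance was longer on 129 in 25, longer on Cas in 15 and equal in 1, while over all windows it was longer on 129 in 48.7% and on Cas in 49.4%. On the log2 scale, the 129 distance exceeded the Cas distance by a median of 0.23 (quartiles -0.17 and 0.45), against 0 over 43555 windows (quartiles -0.31 and 0.30). The distances give 1 value per allele and window, so no test was possible, and their unit is taken to be bp. Among Klrb1 and Clec2 genes, 10 of 12 windows were longer on 129, against the 48.7% of all windows, with a median of 0.43. The largest difference was at Klrb1c, with 231.5 kb on 129 and 59 kb on Cas. Where that window leaned to Cas in count, its contacts there were also the shorter ones.

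Of the 41 windows, 5 were 2-fold or more longer on 129, as were 8.37% of all windows. Besides Klrb1c these were 2 windows at Klrc1 and Klri2 and 2 at Klra17. The Klrc1 window had 127 kb on 129 and 38 kb on Cas, and the Klri1 and Klri2 window 80.5 and 22 kb. The windows of Klra17 had 84 and 29 kb, and 75 and 29 kb. At Klrc1 and in both Klra17 windows, the allele with more interactions had the longer ones. This was not so at Klrb1c or in the Klri1 and Klri2 window. In the second Klra17 window the counts were 3439 on 129 and 2627 on Cas, a centred ratio of only -0.06. In the opposite direction, 4 windows were 2-fold or more longer on Cas, as were 8.73% of all windows, and all 4 were in the Clec4 cluster. The window of Clec4a4 and Clec4b1 had 275 kb on 129 and 1123.5 kb on Cas, that of Clec4a2 269 and 712 kb, that of Clec4b1 571 and 1213 kb, and that of most of Clec4b2 183 and 384 kb. In the low-count Klra windows, the medians over 7 windows were 729.5 kb on 129 and 683 kb on Cas. These were longer than the medians of the whole complex, 255.5 and 218.5 kb, and shorter than those of all autosomal windows of like count, 2569 and 2540 kb.

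**Figure D4:**
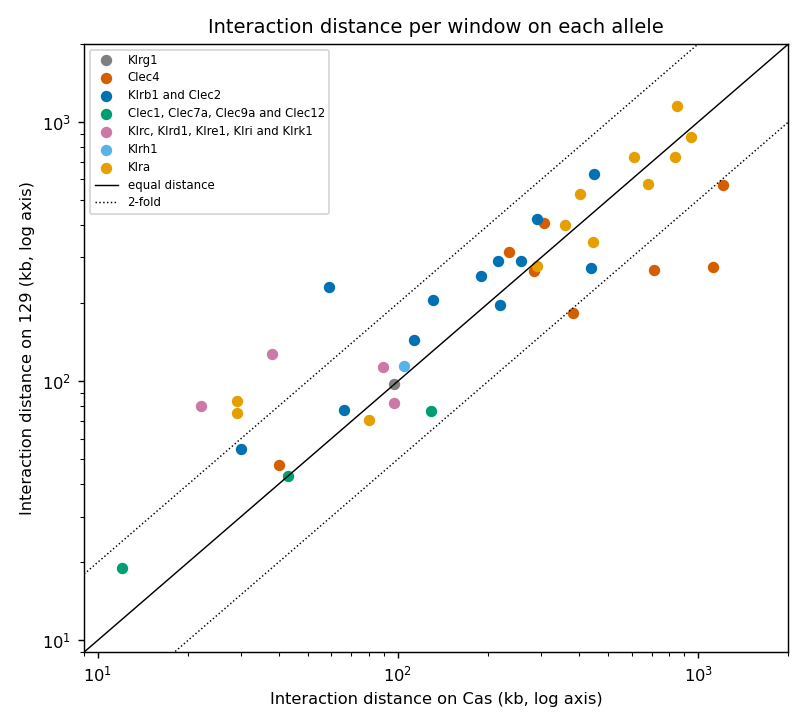
Interaction distance on 129 against that on Cas in kb, both on log axes, for the 41 windows compared, coloured by family. The solid line marks equal distance and dotted lines 2-fold. The 4 points below the lower dotted line are Clec4 windows, and the 5 above the upper one lie at Klrb1c, Klrc1, Klri2 and Klra17.

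The coding genes of other kinds inside the complex gave ratios close to the autosomal median, but partly from windows they share with members. The 5 coding genes there, BC035044, Cd69, Olr1, Tmem52b and Gabarapl1, formed 4 loci with ratios of -0.15 to -0.03, none called by the beta-binomial test. BC035044 lies in the windows of Klrb1b and Clec2i, and Olr1 partly in that of Clec7a. Of the 3 windows inside the clusters that hold no member, that between Klra5 and Klra6 (129950001 to 130000000) had 166 interactions on 129 against 223 on Cas, a ratio of -0.88 with a beta-binomial adjusted p of 0.757. Cd69, an early activation antigen of lymphocytes, had 2253 interactions on 129 and 1681 on Cas. The 9 windows analysed between Klra1 and Klra2 had low counts like those of the Klra genes before it, with a median of 81 interactions on both alleles. One window there (130600001 to 130650000) had 0 interactions on 129 and 17 on Cas. With 129 set to a floor of 3 counts for this window it was at least 5.67-fold lower on 129, a bound that leaves out the counting error of Cas. The exact upper limits were 19.5% for the 129 share and 0.242 for the ratio of 129 to Cas. The beta-binomial adjusted p was 0.00247. A single allele had no interaction in 0.103% of all windows tested, a share not matched for count. At counts this low ratios spread widely. The 71 autosomal windows with 10 to 17.8 interactions ran from -4.14 to 3.55 (5th to 95th percentile), and this window had a ratio of -4.62.

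Genes whose names match the same rule outside the complex lay in 15 windows, none of which was past 1.5-fold, against 12.2% of all windows. Their ratios ran from -0.40 to 0.26 with a standard deviation of 0.16, and their counts were higher, with a median of 3631 interactions on both alleles. Autosomal windows with 3162 to 5623 interactions, the range that holds this median, had ratios of -0.47 to 0.57 (5th to 95th percentile). The difference in spread from the complex was not tested.

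Ligands and signalling partners of these receptors were taken from lists. Of 18 ligand genes, 7 loci had 10 or more interactions, and none was called by the beta-binomial test. Their median ratio was -0.22, against -0.02 over all loci, and the binomial test called all 7, 2 higher on 129 and 5 on Cas, where it called 61.6% of all loci (29.0% and 32.5%). H2-T23, which encodes Qa-1, the ligand of Klrc and Klrd1 heterodimers, had 301 interactions on 129 and 296 on Cas, a ratio of -0.43. H2-D1, an MHC class I ligand of Klra receptors, had 1481 and 1437, a ratio of -0.41. Pdpn, which encodes podoplanin, the ligand of Clec1b, had 492 and 308, a ratio of 0.22, and the cadherin gene Cdh4 had 13116 and 8547, a ratio of 0.17. Of 18 adaptor and signalling genes, 14 loci were tested and none was called by the beta-binomial test, with a median ratio of 0.08. The binomial test called 7 higher on 129 and 3 on Cas, against 29.0% and 32.5% of all loci (61.6% together). The kinase gene Zap70 had 581 and 298, a ratio of 0.51, and Pik3r1, a regulatory subunit of phosphoinositide kinase, 5788 and 3373, a ratio of 0.33. Grb2, an adaptor, had 2334 and 2048, a ratio of -0.26, and the phosphatase gene Ptpn11 had 1612 and 1390, a ratio of -0.24. Tyrobp and Hcst, the DAP12 and DAP10 adaptors of the activating receptors, shared their windows, with 7071 and 5639 interactions and a ratio of -0.13.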

How the data were processed

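Promoter Capture Hi-C was performed by the submitters on 2 samples of F121-6 ES cells with HindIII, baits for 22225 promoters and paired reads of 100 bp, per the labels' protocols. The submitters' processing notes name Bowtie2 and mm10. The sources used here do not state how alleles were assigned, reads filtered or samples merged. Per 50 kb window and allele, the deposited file has raw interaction counts (whole numbers) and a distance. Both samples list the same columns, taken as pooled values. Totals were 50842396 interactions on 129 and 37470557 on Cas.

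Ratios were log2((129 + 1)/(Cas + 1)) minus the median of all windows, 0.45. Units with 10 or more interactions were tested against the autosomal share by a two-sided beta-binomial test with 1 overdispersion per kind of unit (0.0165 for windows, 0.0136 for loci, by maximum likelihood), adjusted over all units at 0.05. A locus summed all windows its gene overlaps, so neighbouring loci share windows. Both tests were tested on simulated data. The spread between windows was drawn from the same distribution that the beta-binomial test assumes. In that setting this test made no false calls and the binomial test made many. This outcome follows from the setting and cannot show the error rate on these data. The beta-binomial test also missed most shifts below the largest simulated, so a window it did not call may still differ. The rule for full values took members called or past 1.5-fold at 30 or more interactions, and for lists up to 2 genes per direction at 20 or more. Klra3, Tyrobp, Hcst, Cd69, C3ar1, Necap1, Vmn2r19 and the window between Klra1 and Klra2 fall outside it and were named after their values were seen. The members and lists were chosen with earlier results of these data known. Promoters were aligned globally with Biopython 1.88. Tests used scipy 1.17.1 under Python 3.11.15, with pandas 2.3.3 for tables, numpy 2.4.6 for arrays and matplotlib 3.10.9 for plots. Alternatives were other tests, null shares, minimums, pseudocounts, centres and member rules. Of 18 ligand and 18 signalling genes, 8 and 15 lay in the windows.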

Additional observations from a re-analysis of the deposited data

How the results depend on the processing

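The 2 called windows and the called Klrc1 locus were also called with the overdispersion estimated by decile of the count, the null share of chromosome 6, other count minimums and protein-coding members only. The other 3 member rules were run for windows, and the same 2 were called. At an adjusted p under 0.01 there was 1 window. Against equal shares, the beta-binomial test called 0 windows (4 at an unadjusted p under 0.05) and 1 locus. The binomial test called 26 windows and 30 loci. The 129 share was 55.2% with the windows of gene starts only and 56.2% without the window of highest count. The median ratio was -0.076 centred on chromosome 6, -0.086 with windows holding 10 kb or more of genes, -0.11 with gene starts only and -0.019 without Klra6 to Klra1, an alternative chosen after seeing the data. The windows past the fold numbered 6 at 2-fold and 9 without Klra6 to Klra1. The median distance ratio was 0.24 at 20 or more interactions per allele, with 10 kb or more of genes, and without Klra6 to Klra1, and 0.20 at 100 or more and with all windows of each cluster. Family shares without their largest window, also added later, were 61.0% for Clec4, 59.3% for Clec1, Clec7a, Clec9a and Clec12, and 59.4% for Klrc, Klrd1, Klre1, Klri and Klrk1. The cause of these changes was not tested. Of the 46 loci, 3 near 0 changed sign when centred on chromosome 6 and 1 with a pseudocount of 0.5. No replicate could be left out, and no paired analysis was possible because each column pools both samples. Counts of 20 to 420 limit what the Klra windows from Klra6 to Klra1 can show.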
